A study of Mus musculus with 6 samples.

Results

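Genes that encode the matrix metalloproteinases (*Mmp*), the ADAMTS proteases (*Adamts*), the tissue inhibitors of metalloproteinases (*Timp*) and the cathepsins (*Cts*) were followed in the mouse uterus at GD 3.5 of natural pregnancy, before embryo attachment. Members were chosen by a rule on the gene symbol that used no values, although earlier results of these data were known. The rule gave 69 genes, of which 68 had a named probe on the arrays among 20145 named genes, through 84 probes. Of these, 44 gave signal above background often enough to be tested, among 14847 genes tested in all. The arrays compared 3 samples of whole uterus from *Sox17* f/f mice with 3 from *Sox17* ed/ed mice. Both genotypes carried floxed *Sox17* on both alleles, and the *Sox17* ed/ed mice also carried *Ltf* iCre, a recombinase expressed from the lactoferrin locus in the uterine epithelium from puberty onwards. All females were mated at 8 to 10 weeks of age, and the uteri were taken without embryos. As a model, the cross removes *Sox17* from epithelium only, while the RNA came from the whole organ, so that fewer cells of a type and less RNA per cell cannot be told apart. The labels number the samples as replicates without tying each to an animal, and the p-values measure the spread between these samples.

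Matrix metalloproteinases are zinc enzymes that cut collagens, laminins and other matrix proteins, and most are secreted as inactive precursors. TIMPs bind their active sites and hold them in check. ADAMTS enzymes are secreted metalloproteinases that cut proteoglycans such as versican and aggrecan, or trim procollagens and other matrix proteins. Cathepsins are mostly lysosomal proteases that degrade proteins taken up or turned over by the cell, and some also act outside it. In the uterus these enzymes and inhibitors are known for matrix remodelling around implantation, decidualization and involution.

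*Sox17*, the deleted gene, measured 12.21, 12.07 and 12.22 in normalized log2 signal on the *Sox17* f/f arrays and 9.75, 9.59 and 9.81 on the *Sox17* ed/ed arrays, lower on every array of the deleted genotype. Between 33686 and 38941 of the 59305 non-control spots of an array were well above background, and 0 spots were saturated. The share was 60.7%, 61.5% and 65.7% on the *Sox17* f/f arrays and 58.5%, 56.8% and 59.4% on the *Sox17* ed/ed arrays. Every *Sox17* ed/ed array thus had a smaller share than every control array, over all spots and not for the members alone. The cause was not tested. The 3 arrays of a genotype shared a line of the slide, so position on the slide and genotype cannot be told apart. The markers of endometrial stroma, smooth muscle, endothelium and uterine epithelium that were tested were well above background on all arrays, but some of these lists moved with genotype. The mean log2 signal of the 10 uterine epithelium markers ranged from 10.50 to 10.66 in the controls and from 10.77 to 11.05 in *Sox17* ed/ed. Of these, 4 were higher, among them *Krt19* (log2 fold change 2.10) and *Muc1* (1.84), and 2 were lower, *Msx1* (-0.95) and *Cldn7* (-0.715). The mean of the 7 smooth muscle markers ranged from 15.21 to 15.39 and from 14.87 to 15.12, with *Actg2* lower. The mean of the 6 endothelial markers ranged from 10.33 to 10.41 and from 10.17 to 10.24. Of the endothelial markers only *Cldn5* passed the thresholds, as higher (0.52). The other 5 had negative log2 fold changes, among them *Cdh5* (-0.43), *Kdr* (-0.37) and *Pecam1* (-0.29), and the arrays of 4 lay lower without overlap. The mean of the 11 stroma markers overlapped between genotypes, at 14.10 to 14.14 and 14.08 to 14.19, and 0 of the 11 passed the thresholds. Single stroma markers moved in both directions. The arrays of 3 lay higher and those of 1 lay lower without overlap, beside 19.6% and 21% of all genes tested. *Hoxa10* was at 0.34 and *Dcn* at -0.42. The part of these cells in the protease values was not tested. Of the 7 trophoblast markers, 2 were tested and neither passed the thresholds. The mean log2 signal of the tested squamous epithelium markers ranged from 5.58 to 5.74 in the controls and from 7.71 to 8.77 after deletion of *Sox17*. That difference came from *Krt5* and *Krt15*, each well above background on all 3 *Sox17* ed/ed arrays and on 0 control arrays, while *Krt14* (0.30) and *Trp63* (-0.12) did not pass the thresholds.

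Throughout, a value is a quantile-normalized log2 signal and a log2 fold change is *Sox17* ed/ed minus *Sox17* f/f. A gene was called higher or lower at an unadjusted p under 0.01 in limma together with a fold of at least 1.4, the thresholds of the study's methods. Log2 fold changes of signals near background are uncertain in size. Signals of different probes are not comparable as amounts, so only the difference of a probe between genotypes was read.

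Of the tested genes, 12 passed these thresholds. The 3 higher genes were *Ctsh*, *Ctso* and *Mmp11*. The 9 lower genes were *Adamts16*, *Ctsd*, *Timp1*, *Adamts4*, *Adamts18*, *Adamts9*, *Adamts15*, *Ctsb* and *Ctsc*. The higher genes were 6.82% of the tested members, beside 6.04% of all genes tested, and the lower genes were 20.5%, beside 6.47%. At a limma adjusted p under 0.05 with no fold limit, 6 members were higher (13.6%, beside 8.84% of all genes) and 11 were lower (25%, beside 10.1%). The arrays of the genotypes did not overlap for 10 members that lay higher (22.7%, beside 19.6% of all genes) and for 14 that lay lower (31.8%, beside 21% of all genes). The median log2 fold change was -0.04 over the tested members and -0.0016 over all genes, and the median size of the change was 0.28 and 0.17. These shares describe the members, and no test of the list was made. By family, 5 of 17 *Adamts* genes, 3 of 13 cathepsins, 1 of 3 *Timp* genes and 0 of 11 *Mmp* genes fell, while 2 cathepsins and 1 *Mmp* gene rose. At an unadjusted limma p under 0.05, 2 of the 11 *Mmp* genes were lower, although 0 passed the thresholds, beside 2600 of the 14847 genes tested. At the same p, 3 of the 17 *Adamts* genes were higher, although 0 passed, beside 2426 of all genes tested.

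**Figure D1:**
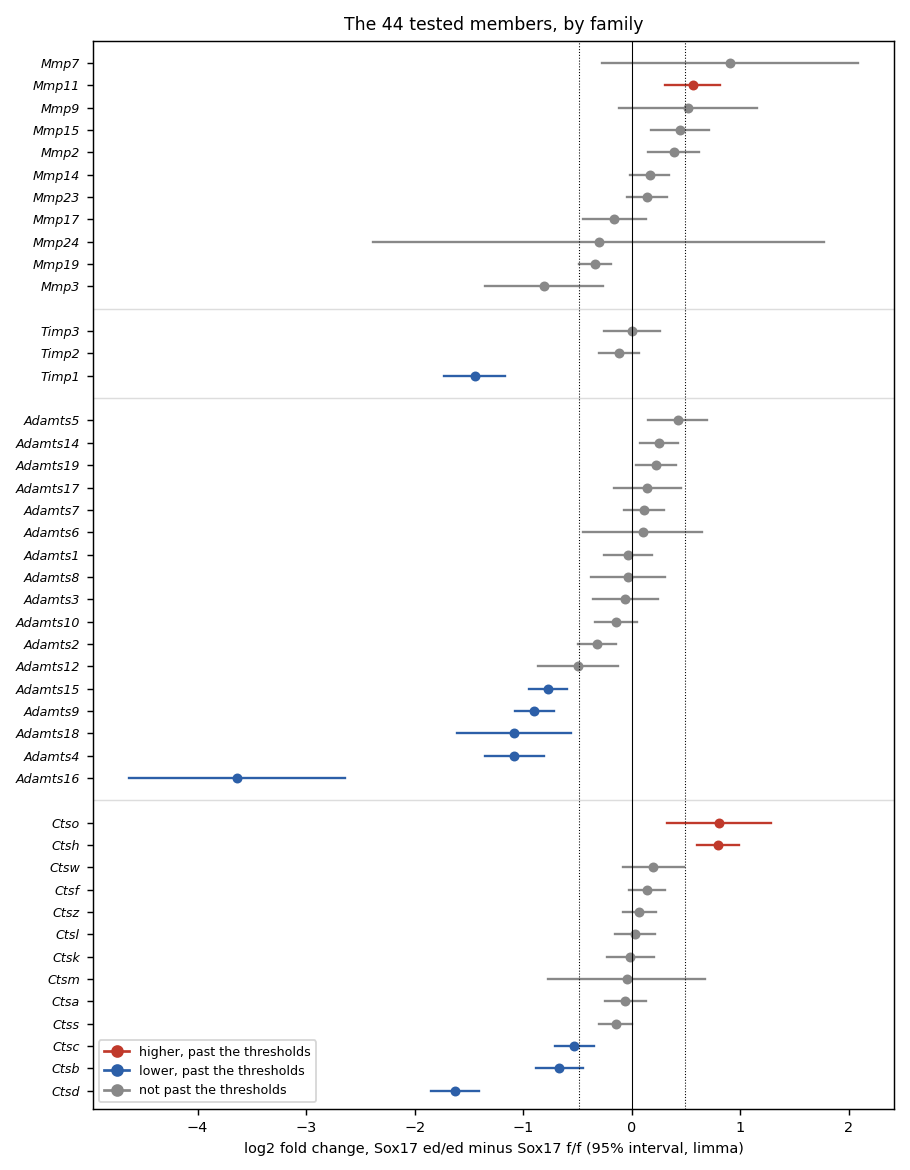
Log2 fold change of the 44 tested genes with the 95% interval from limma (x axis), grouped by family and ordered by value. Dotted lines mark a fold of 1.4 in each direction. The *Adamts* genes past the thresholds all lie to the left, *Timp1* stands apart from *Timp2* and *Timp3*, and the cathepsins lie on both sides of 0.

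The promoters of 5 genes are shown as examples: *Ctsd* and *Timp1*, which fell by most among the members with an entry in the promoter table, *Mmp11* and *Ctso*, which rose, and *Mmp3*, which lay just outside the thresholds. *Adamts4*, *Adamts15*, *Adamts16*, *Ctsb* and *Ctsh* had no entry. Each is the 250 bases before the annotated start in RefSeq on GRCm38.p6, written 5′ to 3′ on the gene's strand. Capitals mark matches on either strand to 5 motifs, which are the AP-1 site TGANTCA, the TATA box TATAAA, the GC box GGGCGG, the CACGTG core of the lysosomal CLEAR element and the ACAAT core bound by SOX factors.
Ctsd, chr7:142387828-142388077, minus strand: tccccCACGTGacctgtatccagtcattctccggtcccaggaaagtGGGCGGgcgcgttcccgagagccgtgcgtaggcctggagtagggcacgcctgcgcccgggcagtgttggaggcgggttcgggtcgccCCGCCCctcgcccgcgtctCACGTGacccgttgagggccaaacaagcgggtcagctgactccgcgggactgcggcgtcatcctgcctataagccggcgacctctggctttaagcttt
Timp1, chrX:20869916-20870165, plus strand: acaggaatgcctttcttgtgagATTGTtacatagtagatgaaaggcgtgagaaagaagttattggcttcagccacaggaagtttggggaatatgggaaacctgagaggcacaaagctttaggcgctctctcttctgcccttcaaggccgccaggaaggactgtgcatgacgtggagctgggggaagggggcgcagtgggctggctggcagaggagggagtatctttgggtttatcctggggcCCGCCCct
Mmp11, chr10:75932503-75932752, minus strand: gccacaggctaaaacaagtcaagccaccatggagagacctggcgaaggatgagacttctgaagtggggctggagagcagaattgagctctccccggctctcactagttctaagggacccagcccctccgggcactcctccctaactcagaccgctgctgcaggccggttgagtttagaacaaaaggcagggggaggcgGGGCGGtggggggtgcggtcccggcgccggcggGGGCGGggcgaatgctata
Ctso, chr3:81932351-81932600, plus strand: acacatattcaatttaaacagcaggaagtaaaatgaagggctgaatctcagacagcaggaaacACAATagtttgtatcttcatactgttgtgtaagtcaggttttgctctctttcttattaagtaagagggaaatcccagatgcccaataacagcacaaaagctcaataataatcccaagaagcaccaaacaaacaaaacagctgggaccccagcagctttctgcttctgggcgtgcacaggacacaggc
Mmp3, chr9:7445572-7445821, plus strand: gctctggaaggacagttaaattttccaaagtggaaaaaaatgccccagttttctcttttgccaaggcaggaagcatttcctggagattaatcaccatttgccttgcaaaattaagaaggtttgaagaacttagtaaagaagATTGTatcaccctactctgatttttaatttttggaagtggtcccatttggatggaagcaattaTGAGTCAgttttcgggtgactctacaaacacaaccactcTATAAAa

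*Ctsd* held CACGTG at 2 places, which begin 245 and 98 bases before the start, and GC boxes at 2 others. *Timp1* held a GC box beginning 8 bases before the start and an ACAAT match farther away, and *Mmp11* held GC boxes beginning 52 and 19 bases before the start. Neither held TATAAA. *Ctso* held 1 match, to ACAAT. *Mmp3* held TGAGTCA beginning 46 bases before the start and TATAAA beginning 7 bases before it, with an ACAAT match beginning 109 bases before it. None of the marked matches overlapped another. Over the 55 promoters listed for 51 members, 8 held the AP-1 motif (14.5%, beside 6.75% of 32851 promoters of all genes), and all 8 belonged to *Mmp* genes that lie side by side on chromosome 9. Only *Mmp3* and *Mmp7* of these were tested, and neither passed the thresholds. Members that were not tested account for 24 of the 55 promoters. TATAAA was in 27.3% of the members' promoters and 12.4% of all, GGGCGG in 40% and 32.7%, CACGTG in 12.7% and 6.02%, and ACAAT in 36.4% and 27.7%. A match describes the letters of this window and is no evidence of binding.

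Among the inhibitors, *Timp1* fell. *Timp1*, a secreted inhibitor of most metalloproteinases, measured 12.08, 11.87 and 11.73 on the *Sox17* f/f arrays and 10.32, 10.58 and 10.44 on the *Sox17* ed/ed arrays. The lowest control array lay above the highest *Sox17* ed/ed array. Its log2 fold change was -1.45 (SE 0.12, limma adjusted p = 0.00051), a 2.73-fold lower signal.

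*Timp2*, which inhibits metalloproteinases and also takes part in the activation of pro-MMP2, measured 15.62, 15.79 and 15.80 against 15.57, 15.64 and 15.67. The genotypes overlapped, and the log2 fold change was -0.12 with a 95% interval from -0.30 to 0.07 (limma adjusted p = 0.34). A second, dimmer *Timp2* probe gave -0.32, with its arrays lower in *Sox17* ed/ed without overlap. It had an unadjusted limma p of 0.012 and did not pass the thresholds. *Timp3*, the matrix-bound inhibitor that also acts on ADAMTS enzymes, measured 12.50, 12.81 and 12.57 against 12.60, 12.75 and 12.54. Its arrays overlapped as well, with a log2 fold change of 0.002 and an interval from -0.26 to 0.26 (limma adjusted p = 0.99), and under other scalings its sign turned. *Timp4* was well above background on 2 of the 6 arrays and was not tested.

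The gelatinases, which cut denatured collagen and basement membrane collagen, did not pass the thresholds. *Mmp2* measured 13.01, 13.24 and 13.14 on the *Sox17* f/f arrays and 13.49, 13.39 and 13.65 on the *Sox17* ed/ed arrays. All *Sox17* ed/ed values were above the controls, and the log2 fold change of 0.38 (SE 0.10) had a limma adjusted p of 0.041 but a fold of 1.31. *Mmp9* gave 5.25, 4.81 and 4.69 against 4.93, 5.50 and 5.86. Its genotypes overlapped, and the interval ran from -0.12 to 1.15 around 0.51.

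The stromelysins, which cut proteoglycans, laminin and other substrates or act on protease inhibitors, differed from each other in direction. *Mmp11*, a metalloproteinase made by stromal cells and activated inside the cell by furin, measured 10.10, 9.99 and 10.33 on the *Sox17* f/f arrays and 10.78, 10.67 and 10.65 on the *Sox17* ed/ed arrays. The *Sox17* ed/ed arrays all lay higher, and *Mmp11* rose by a log2 fold change of 0.56 (SE 0.10, limma adjusted p = 0.014). Without *Sox17* f/f array 2, the log2 fold change was 0.48 and below the fold threshold.

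*Mmp3* measured 10.71, 10.50 and 9.94 against 9.30, 9.78 and 9.63. The *Sox17* ed/ed arrays all lay lower, control array 3 being nearest to them. The log2 fold change was -0.81 (SE 0.22) with an unadjusted limma p of 0.0104 and an adjusted p of 0.053, which places *Mmp3* just outside the thresholds, whereas *Ctso* with an unadjusted p of 0.0060 and *Ctsc* with a fold of 1.44 were just inside. *Mmp3* passed under 4 of the other settings tried. *Mmp10* gave no signal well above background.

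*Mmp7*, the matrilysin made by epithelia, measured 5.54, 6.19 and 4.15 on the *Sox17* f/f arrays and 6.13, 6.21 and 6.27 on the *Sox17* ed/ed arrays. Control array 2 overlapped the *Sox17* ed/ed arrays, control array 3 was the lowest, and the interval from -0.27 to 2.08 around 0.90 included 0. Of the membrane-type enzymes, *Mmp14*, which activates pro-MMP2 at the cell surface, measured 10.28, 10.30 and 10.23 against 10.42, 10.34 and 10.53. Its arrays did not overlap, but the log2 fold change was only 0.16 (limma adjusted p = 0.18). *Mmp15* reached 0.44 (limma adjusted p = 0.041), under the fold threshold. *Mmp17* and *Mmp24* had intervals that included 0, and control array 2 of *Mmp24* stood at 6.69 while the other 5 arrays lay between 3.07 and 4.72. *Mmp19* had a log2 fold change of -0.34 (limma adjusted p = 0.014, fold 1.27), and *Mmp23* one of 0.14 (limma adjusted p = 0.26).

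The collagenases *Mmp1a*, *Mmp1b*, *Mmp8* and *Mmp13* and the elastase *Mmp12* gave too little signal to test. *Mmp1b* was well above background on 2 *Sox17* f/f arrays, and the others on 0 arrays. Together with *Mmp3*, *Mmp7*, *Mmp10*, *Mmp20* and *Mmp27*, the last of which had no named probe, they form the run of 10 neighbouring *Mmp* genes on chromosome 9, of which 2 were tested.

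**Figure D2:**
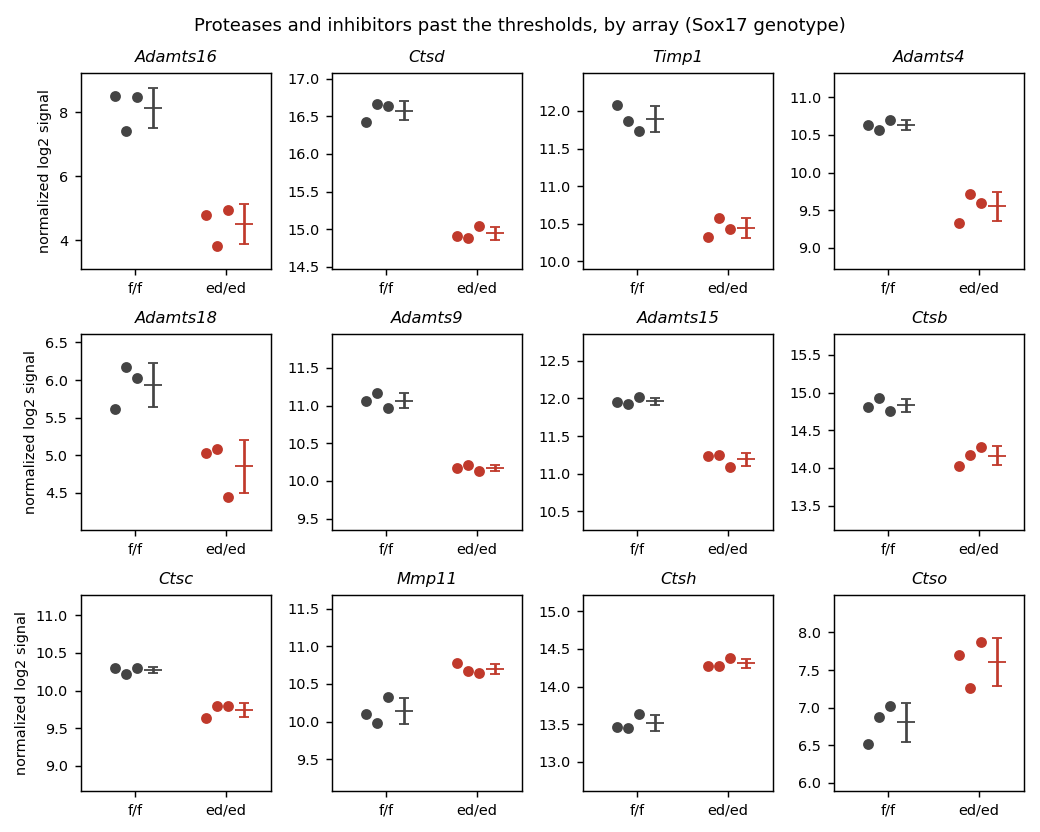
Normalized log2 signal (y axis) of each of the 12 genes past the thresholds on the 3 *Sox17* f/f (grey) and 3 *Sox17* ed/ed (red) arrays, with the mean and SD beside the points. The y axis range differs between panels. In all 12 panels the genotypes do not overlap, with 9 genes lower and 3 higher in *Sox17* ed/ed. The genes were picked by the thresholds on these same arrays, so this is no separate support for the calls. Over all genes tested, 21% lay lower and 19.6% higher without overlap.

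The ADAMTS genes that passed the thresholds were all lower, and among the proteoglycan-cleaving enzymes 3 of 6 tested fell. *Adamts4*, an aggrecanase, measured 10.64, 10.56 and 10.70 on the *Sox17* f/f arrays and 9.34, 9.72 and 9.60 on the *Sox17* ed/ed arrays. No array overlapped, and the log2 fold change was -1.08 (SE 0.11, limma adjusted p = 0.0015). *Adamts9*, which cuts versican and aggrecan, measured 11.07, 11.17 and 10.96 against 10.17, 10.21 and 10.13. The arrays of each genotype lay close together, and the log2 fold change was -0.90 (SE 0.08, limma adjusted p = 0.00063). *Adamts15*, another versican-cleaving member, measured 11.95, 11.92 and 12.02 against 11.23, 11.26 and 11.09. It was lower on all 3 *Sox17* ed/ed arrays by a log2 fold change of -0.77 (SE 0.07, limma adjusted p = 0.0010).

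The other tested proteoglycan-cleaving genes did not follow them. *Adamts1*, a versican-cleaving enzyme needed for normal ovulation, measured 12.65, 12.77 and 12.63 against 12.54, 12.80 and 12.59. The genotypes overlapped, and the log2 fold change was -0.04 with an interval from -0.26 to 0.18 (limma adjusted p = 0.82). *Adamts5*, the other main aggrecanase, measured 7.76, 7.40 and 7.71 against 8.02, 8.13 and 7.97. Its *Sox17* ed/ed arrays were all higher, with a log2 fold change of 0.42 (SE 0.11, limma adjusted p = 0.049) under the fold threshold, and its second probe gave 0.13. *Adamts8* had a log2 fold change of -0.04 with overlapping arrays, while its second probe, well above background in the 3 controls alone, measured 4.58, 4.26 and 4.31 against 3.89, 3.41 and 4.12 and did not pass the thresholds. *Adamts20* gave no signal well above background.

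The largest log2 change among the members was that of *Adamts16*, a less studied family member. *Adamts16* measured 8.52, 7.42 and 8.50 on the *Sox17* f/f arrays and 4.79, 3.80 and 4.93 on the *Sox17* ed/ed arrays. The genotypes were far apart, and array 2 was the lowest of each. The log2 fold change was -3.64 (SE 0.41, limma adjusted p = 0.0022). The probe was well above background on 2 of the 3 *Sox17* ed/ed arrays, so the size of this change rests on signals near background, and with another background correction (normexp) it was -1.84. The second *Adamts16* probe was well above background on 2 arrays, both *Sox17* f/f, and was not tested.

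*Adamts18*, known from the branching of epithelial organs, measured 5.61, 6.17 and 6.02 against 5.03, 5.08 and 4.45. The arrays did not overlap, and the log2 fold change was -1.08 (SE 0.22, limma adjusted p = 0.019). With normexp it was -0.41 and below the fold threshold. *Adamts6*, *Adamts10*, *Adamts17* and *Adamts19* lay between -0.14 and 0.22 and did not pass, and the 2 probes of *Adamts17* gave 0.14 and -0.20.

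Of the procollagen N-propeptidases, which trim the amino end of fibrillar procollagens, *Adamts2* had a log2 fold change of -0.32 (limma adjusted p = 0.027, fold 1.25), and its second probe gave -0.46. *Adamts14* had one of 0.25 (limma adjusted p = 0.062) and *Adamts3* one of -0.06 (limma adjusted p = 0.78). *Adamts7* and *Adamts12*, which cut cartilage oligomeric matrix protein, had log2 fold changes of 0.11 and -0.50. The brighter *Adamts12* probe did not overlap between genotypes and reached an unadjusted limma p of 0.016, while its second probe gave 0.16 in the opposite direction. *Adamts13*, which cuts von Willebrand factor, gave no signal well above background.

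Among the cathepsins, *Ctsd*, *Ctsb* and *Ctsc* fell and *Ctsh* and *Ctso* rose. *Ctsd*, the main lysosomal aspartic protease, whose promoter with 2 CACGTG cores is printed above, measured 16.43, 16.66 and 16.64 on the *Sox17* f/f arrays and 14.91, 14.88 and 15.04 on the *Sox17* ed/ed arrays. Every *Sox17* ed/ed array was well below every control array. The log2 fold change was -1.63 (SE 0.09, limma adjusted p = 0.00013), a 3.10-fold lower signal, and the second *Ctsd* probe gave -1.85. *Ctse*, the other aspartic cathepsin, gave no signal well above background.

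*Ctsb*, a lysosomal cysteine protease, measured 14.81, 14.93 and 14.76 on the *Sox17* f/f arrays and 14.03, 14.18 and 14.28 on the *Sox17* ed/ed arrays. The arrays were apart, and *Ctsb* changed by a log2 fold change of -0.67 (SE 0.09, limma adjusted p = 0.0044). *Ctsc*, dipeptidyl peptidase I, which activates the granule serine proteases of immune cells, measured 10.30, 10.23 and 10.30 against 9.64, 9.80 and 9.80. It was lower on all 3 *Sox17* ed/ed arrays, with a log2 fold change of -0.53 (SE 0.07, limma adjusted p = 0.0048). Without *Sox17* ed/ed array 1 it was -0.47, below the fold threshold.

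Macrophages are rich in these lysosomal enzymes, and the study lists *Ctsd* among its genes specific to the luminal epithelium. Of the 8 macrophage markers tested, *Mrc1* fell by 0.88 on the log2 scale and 7 did not pass the thresholds. The arrays of 5 of the 8, *Mrc1* included, lay lower without overlap, and those of 1, *Csf1r* at 0.41, lay higher. *Aif1* was at -0.27, *C1qc* at -0.26, *C1qb* at -0.23, *C1qa* at -0.16 and *Adgre1* at -0.11, and *Lyz2* at 0.28. The mean log2 signal of the 8 ranged from 11.21 to 11.30 in the controls and from 11.07 to 11.15 in *Sox17* ed/ed. Of the 6 mast cell markers, 2 fell, *Kit* and *Fcer1a*, the latter with 0 *Sox17* ed/ed arrays well above background, and the mean log2 signal of the 6 ranged from 7.58 to 8.06 in the controls and from 6.98 to 7.36 in *Sox17* ed/ed. All 7 lymphocyte and natural killer markers had positive log2 fold changes, and *Nkg7* was higher. Their mean log2 signal ranged from 8.471 to 8.792 in the controls and from 8.791 to 9.139 in *Sox17* ed/ed. Among 9 neutrophil markers, 7 were tested, and only *Ltf* (5.63), which the study lists as estrogen-responsive, passed the thresholds. *Camp* (0.18) and *Csf3r* (0.02) were positive, and *S100a9* (-0.46), *S100a8* (-0.41), *Mpo* (-0.35) and *Elane* (-0.16) negative. The mean of the 7, *Ltf* included, ranged from 8.657 to 8.818 in the controls and from 9.255 to 9.513 in *Sox17* ed/ed. The part of these cells, and of the epithelium, in the cathepsin values was not tested.

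*Ctsh*, a lysosomal aminopeptidase, moved the other way. *Ctsh* measured 13.46, 13.45 and 13.64 on the *Sox17* f/f arrays and 14.27, 14.27 and 14.38 on the *Sox17* ed/ed arrays. All *Sox17* ed/ed arrays lay above all controls, and the log2 fold change was 0.79 (SE 0.08, limma adjusted p = 0.0014). *Ctso*, a less studied cysteine cathepsin, measured 6.52, 6.88 and 7.02 against 7.70, 7.26 and 7.87. The arrays did not overlap, and the log2 fold change was 0.80 (SE 0.20, limma adjusted p = 0.037). This call is weak, since *Ctso* passed the thresholds in only 2 of the 6 fits that left out 1 array. It passed without *Sox17* f/f array 3 or *Sox17* ed/ed array 2, and did not pass without *Sox17* f/f array 1 (log2 fold change 0.66), *Sox17* f/f array 2 (0.83), *Sox17* ed/ed array 1 (0.76) or *Sox17* ed/ed array 3 (0.67).

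The remaining cysteine cathepsins did not pass the thresholds. *Ctsl*, a broad lysosomal endopeptidase, measured 13.95, 14.00 and 14.14 against 14.00, 14.08 and 14.08. The genotypes overlapped, and the interval ran from -0.16 to 0.21 around 0.02. *Ctsk*, the collagen-cleaving cathepsin of osteoclasts, measured 12.30, 12.29 and 12.43 against 12.17, 12.42 and 12.37. It overlapped too, with an interval from -0.23 to 0.20 around -0.02. *Ctss*, which processes the class II invariant chain in antigen-presenting cells, measured 12.26, 12.28 and 12.24 against 12.17, 12.05 and 12.11. Its arrays did not overlap, although the log2 fold change was only -0.15 (limma adjusted p = 0.15). *Ctsz*, a carboxypeptidase, measured 13.06, 13.10 and 13.18 against 13.18, 13.17 and 13.19. Its genotypes overlapped, with an interval from -0.09 to 0.22 around 0.07. *Ctsf* and *Ctsw* had log2 fold changes of 0.14 and 0.20.

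Of the serine cathepsins, the brighter probe of *Ctsa*, the lysosomal protective protein, gave -0.06 with overlapping arrays. Its second probe gave 0.53, with *Sox17* ed/ed array 3 at 7.51 and the other 5 arrays between 6.06 and 6.47. *Ctsg*, a granule protease of neutrophils, was well above background on 2 *Sox17* f/f arrays and was not tested. The rodent cathepsins made by the placenta sit in a run of 9 neighbouring genes on chromosome 13. *Ctsm* was the 1 tested of these, with overlapping arrays and a log2 fold change of -0.05 (limma adjusted p = 0.93). *Cts6* and *Cts8* were well above background on 1 *Sox17* f/f array each, at 4.70 and 6.33, and *Cts3*, *Cts7*, *Ctsj*, *Ctsll3*, *Ctsq* and *Ctsr* on 0 arrays.

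**Figure D3:**
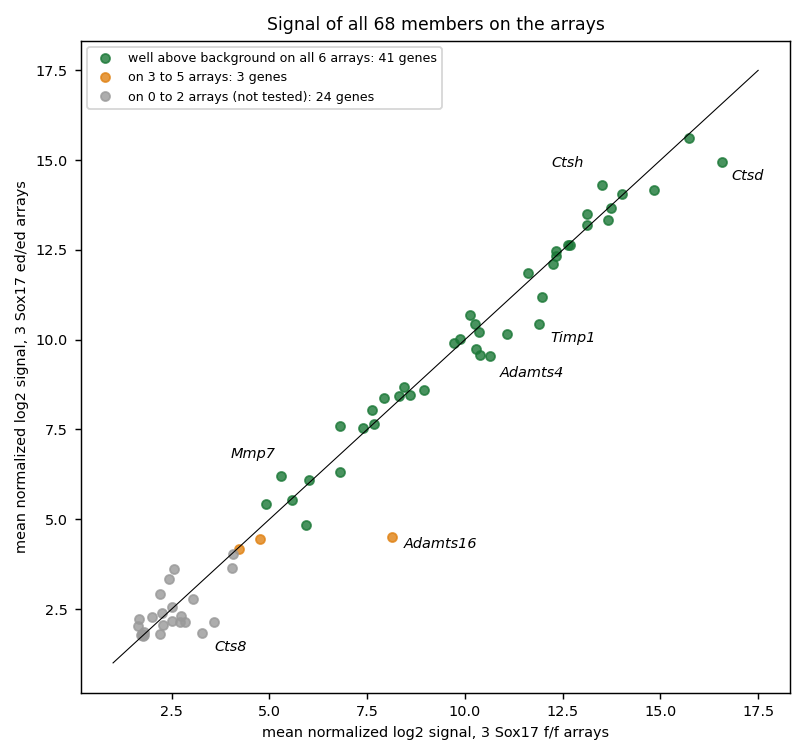
Mean normalized log2 signal of the probe used (or the brightest probe) for each of the 68 genes on the *Sox17* f/f arrays (x axis) and the *Sox17* ed/ed arrays (y axis), with the line of equality. Of these genes, 41 were well above background on all 6 arrays, 3 on 3 to 5 arrays and 24 on 0 to 2 arrays, and *Adamts16*, *Ctsd* and *Timp1* lie below the line.

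In all, 24 members were not tested. Of these, 19 rose well above background on 0 arrays and 5 on 1 or 2. The untested members not named above were *Mmp16*, *Mmp21*, *Mmp25* and *Mmp28*, and these 4 were well above background on 0 arrays. Their signals give no level, and an absence of expression cannot be read from them.

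Activators, partners, further inhibitors and substrates of these proteases were examined as a list of 67 genes, of which 55 were tested. There, 7 were higher (12.7%) and 9 were lower (16.4%), beside the shares of 6.04% and 6.47% over all genes. This list was chosen with earlier results of these data known, so the shares describe it and are no test of it.

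*Reck*, a membrane-anchored inhibitor of metalloproteinases, measured 7.86, 7.92 and 8.17 on the *Sox17* f/f arrays and 8.44, 8.47 and 8.66 on the *Sox17* ed/ed arrays. The arrays did not overlap, and *Reck* rose by a log2 fold change of 0.54 (SE 0.11, limma adjusted p = 0.020), whereas *Timp1* fell. *A2m*, a broad protease inhibitor of plasma, rose by 1.44, and *Slpi* and *Wfdc2*, both with the whey acidic protein fold, rose by 1.99 and 1.47. *Mug1*, a relative of *A2m*, fell by 3.00 on the log2 scale. *Serpine2*, a serine protease inhibitor, fell by 1.01 on the log2 scale.

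*Spink1*, a trypsin inhibitor, measured 15.21, 14.72 and 14.45 on the *Sox17* f/f arrays and 5.63, 3.57 and 4.36 on the *Sox17* ed/ed arrays. It was well above background on 2 of the 3 *Sox17* ed/ed arrays. Its log2 fold change was -10.28 (SE 0.51, limma adjusted p = 8.6e-05). Of the inhibitors of cysteine cathepsins tested (*Cst3*, *Cst6*, *Cst7*, *Cstb*, *Stfa2*, *Ctla2a* and *Ctla2b*), 0 of 7 passed the thresholds or an unadjusted limma p under 0.05. They lay between -0.35 (*Stfa2*) and 0.29 (*Cst7*), with *Cst3* at 0.008. These 7 were added to the genes named here after their values were seen. Of all 14847 genes tested, 897 were higher and 960 lower at the thresholds. At an unadjusted limma p under 0.05, 2426 were higher and 2600 lower. *Mug1*, *Klk1*, *Stfa2* and the *Ctla2* genes have close relatives in the mouse genome, and a share of those in the probes' signals was not tested.

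Of the proteases that activate others, *Plau*, the urokinase plasminogen activator, fell by 0.60 on the log2 scale and *Pcsk5*, a proprotein convertase, fell by 0.82. *Lgmn*, the asparaginyl endopeptidase that processes cathepsins in the lysosome, measured 14.25, 14.18 and 14.11 against 13.26, 13.36 and 13.41. Its arrays were apart, with a log2 fold change of -0.84 (SE 0.07, limma adjusted p = 0.00077). *Hpn*, a membrane serine protease, and *Klk1*, tissue kallikrein, rose by 1.53 and 1.43, and *Adam8*, a membrane metalloproteinase, rose by 0.80. *Tll1*, a procollagen C-proteinase, fell by 1.84 on the log2 scale with 1 *Sox17* ed/ed array well above background, and *Pcolce*, an enhancer of such proteinases, fell by 0.64. *Furin* was at 0.03 (limma adjusted p = 0.86) and *Vcan*, the versican substrate, at 0.21 (limma adjusted p = 0.16). Other matrix genes on the list moved in both directions. *Dcn* (-0.42), *Fbn1* (-0.44) and *Fn1* (0.32) had a limma adjusted p under 0.05 but lay under the fold threshold. *Acan* (-0.60), *Cspg4* (-0.16), *Eln* (-0.13) and *Bgn* (-0.05) had an adjusted p above 0.05.

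Of the 12 members past the thresholds, 8, namely *Ctsh*, *Adamts4*, *Adamts9*, *Adamts15*, *Adamts16*, *Ctsb*, *Ctsd* and *Timp1*, also passed these same thresholds under each other processing and with each array left out, wherever a value could be had.

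**Figure D4:**
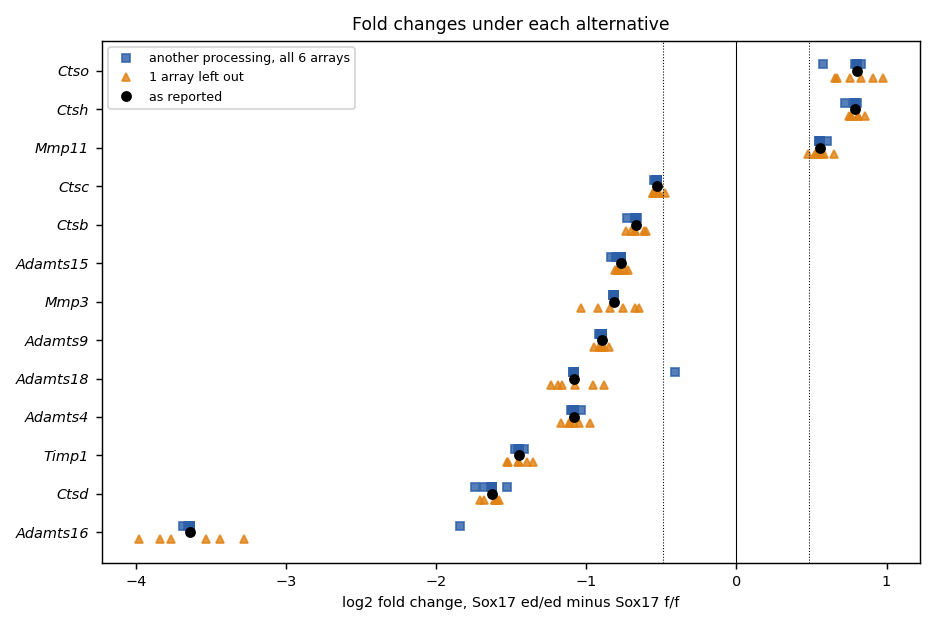
Log2 fold change (x axis) of the 12 genes past the thresholds and of *Mmp3* as reported (black), with another processing of all 6 arrays (blue) and with 1 array left out (orange). Dotted lines mark a fold of 1.4. Every value keeps its side of 0, and the normexp values of *Adamts16* and *Adamts18* stand nearest to 0 for these genes.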

How the data were processed

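Whole uterus RNA from 6 samples, 3 per genotype, was measured on 6 Agilent mouse arrays of 1 colour. The authors deposited each array's scanner output, made with Feature Extraction 11.0.1.1 by the headers (9.1 in the submitters' processing notes), and a table of processed values. The deposited intensity used here is the processed signal, background-subtracted within an array and not normalized between arrays. The deposited table lay within 0.191% of it. Background subtraction makes log2 values near background uncertain.

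In R 4.3.3, outlier and control spots were left out, log2 signals were quantile normalized, as the study's methods name, and each probe's spots were averaged. A probe entered when 3 or more of the 6 arrays had it well above background, and the brightest stood for its gene. Of 55681 probes, 26582 matched RefSeq accessions of 20145 genes. Genotypes were compared with limma 3.58.1 (lmFit, eBayes) over 14847 genes with Benjamini-Hochberg adjustment. Precision is limited by 3 arrays per genotype, for which the smallest p of an exact permutation test is 0.1. The limma comparison was tested on simulated data. It called 91 of 100 genes changed by 1 on the log2 scale, 99 of 100 changed by 2, and 73 unchanged genes. The simulated noise was independent between arrays, so it cannot speak to effects of the array or of its place on the slide.

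The members and all lists were chosen with earlier results of these data known. Named in full were the members past the thresholds, all *Timp* genes and a set of well-known members whatever their values, then untested members, members whose probes disagreed, and, of the related genes, those past the thresholds and *Reck*, except 1 that is not reported here. The cathepsin inhibitors, *Furin*, *Vcan*, the other matrix genes and the remaining members were added after their values were seen. Alternatives covered the scaling (75th percentile), the background (normexp, offset 50, on the median signals, since no mean signal column was in the files), the filter, the choice of probe, the deposited table, a replicate block, an intensity trend, the thresholds and leaving out each array.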

Additional observations from a re-analysis of the deposited data

Results flagged for a closer look

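The second probe of *Mmp11*, which the comparison of genes did not use, was well above background on all 6 arrays. Its mean was 9.31 in *Sox17* f/f, where the highest array was at 9.60, and 9.86 in *Sox17* ed/ed, where the lowest was at 9.65, a difference of 0.55 with no overlap between genotypes. It had an unadjusted limma p of 0.015 and so did not pass the thresholds that the brighter probe passed, and the cause of this was not tested.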

How the results depend on the processing

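The 3 arrays per genotype limit precision, and log2 values near background are uncertain. The 3 higher and 9 lower members became 0 and 5 with a fold threshold of 2, and the 16 related genes became 10. At an adjusted p under 0.05 with no fold limit, 6 members were higher and 11 lower. Leaving out 1 array gave 1 to 4 higher members, with 1 (*Ctsh*) without *Sox17* f/f replicate 2, and 8 to 10 lower members. With the replicate block the counts stayed at 3 and 9 members and 16 related genes. Same-numbered arrays correlated at 0.06, -0.11 and -9.5e-05 in their deviations, and the highest values with another number were 0.01, 0.07 and 0.08. With 3 arrays per genotype, these values cannot tell whether the numbers pair the samples. *Ctso* did not pass without the filter on dim probes. *Mmp3* passed with normexp, with all 6 arrays required, with an intensity trend and without *Sox17* f/f replicate 3. *Adamts16* has no value where all 6 arrays were required. Signs turned for genes not past the thresholds. With the 75th percentile, *Ctsl* was at -0.019, *Ctsz* at -0.016 and *Timp3* at -0.057. With normexp, *Ctsl* was at -0.0079 and *Timp3* at -0.077, and with the deposited table *Timp3* was at -0.0076. Leaving out 1 array gave -0.061 to 0.090 for *Timp3*, -0.017 to 0.083 for *Ctsl*, -0.11 to 0.015 for *Adamts1* and -0.068 to 0.058 for *Ctsk*. The causes were not tested. A block on slide or scan was not run, since the 6 arrays shared 1 slide and 1 scan.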
